A study of Mus musculus with 11 samples.

Results

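Malat1, Neat1, Miat, Snhg11, Kcnq1ot1 and Pantr1 are long noncoding RNAs, most of them kept in the nucleus, and their levels were followed by genotype in mouse spinal cord and in cultured mouse fetal fibroblasts (MEF). The 6 genes were picked by name, with their genotype differences in these data known, from the 55487 genes listed, of which 9911 are long noncoding genes of the annotation. Each of the 6 had a row under its Ensembl identifier. The values that led to their choice are the genotype differences, which are therefore given as a description with no p-value.

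The 11 RNA-seq libraries came from C57BL/6 mice of 2 genotypes, wild-type and Morc2a p.S87L heterozygote (called S87L here), the second of which carries a missense change in the ATPase gene Morc2a. There were 3 wild-type and 3 S87L spinal cord libraries, and 3 wild-type and 2 S87L MEF libraries. No source used here gives ages, or tells whether each library was its own animal or culture, so the p-values cover only the scatter among these libraries and that scatter may be technical. Values are FPKM, fragments per kilobase of gene, scaled to the reads of the library, and the libraries held between 12080000 and 23530000 reads as recovered from the FPKM steps.

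Long noncoding RNAs act as RNA, without being translated. Malat1 collects in nuclear speckles, bodies rich in splicing factors, and Neat1 is the scaffold on which paraspeckles assemble around proteins such as Nono and Sfpq. Miat, also named Gomafu, forms its own nuclear dots in neurons. Snhg11 is a neuronal transcript that hosts small nucleolar RNAs in its introns. Kcnq1ot1 is transcribed from the paternal allele across Kcnq1 and silences imprinted genes around it, and Pantr1 is read from the opposite strand beside the neural transcription factor gene Pou3f3.

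Malat1 was among the most abundant long noncoding RNAs of both tissues and was lower in every S87L cord library than in every wild-type one. The gene (ENSMUSG00000092341, GRCm38 chr19:5795690-5802672, minus strand) is annotated as a lincRNA with 1 exon of 6983 bases. Its FPKM was 284, 294 and 278 in the wild-type cord libraries and 166, 165 and 178 in the S87L ones. The highest S87L cord value thus lay far under the lowest wild-type value. The means were 286 ± 7.93 and 170 ± 7.63 FPKM (SD, n = 3 each), a ratio of 0.594, with a log2 fold change of -0.75 (SE 0.04) on the log2(FPKM + 0.5) scale used throughout. In MEF the values were 194, 199 and 198 FPKM in wild-type and 213 and 205 FPKM in S87L libraries. Both S87L MEF libraries were slightly above all wild-type ones, with a log2 fold change of 0.08 (SE 0.04). In bulk tissue, fewer cells of a type and less RNA per cell cannot be told apart, which applies to each cord value given here.

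Neat1 showed the same order of groups in cord and no separation in MEF. The gene (ENSMUSG00000092274, chr19:5824708-5845478, minus strand) lies beside Malat1 and is annotated as 1 exon of 20771 bases, so the total does not separate its short and long isoforms. Wild-type cord libraries held 9.16, 8.67 and 8.79 FPKM, and S87L cord libraries held 4.76, 4.76 and 4.63 FPKM. No S87L cord library came near the wild-type ones, and the spread within each group was small. The means were 8.87 ± 0.254 and 4.71 ± 0.0772 FPKM (SD, n = 3 each), a ratio of 0.531 and a log2 fold change of -0.85 (SE 0.04). The MEF libraries gave 3.28, 3.45 and 3.61 FPKM in wild-type and 3.49 and 3.46 FPKM in S87L. The MEF groups overlapped, with a log2 fold change of 0.01 (SE 0.07).

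Malat1 and the long isoform of Neat1 share a 3' end that is known to fold into a triple helix in place of a poly(A) tail. In it, U-rich stretches pair with an A-rich stretch. The stretches are shown because they set these 2 genes apart from the other 4 members: only Malat1 and Neat1 held a TTTTGCTTTT close before an AAAAAGCAAAA, both searched on the transcript strand. The capitals mark these runs, written as DNA from the annotated GRCm38 transcripts. That of Malat1 lies at chr19:5795982-5796027 (minus strand), 292 bases before the annotated end, and that of Neat1 at chr19:5824708-5824760 (minus strand), at the annotated end itself.
Malat1: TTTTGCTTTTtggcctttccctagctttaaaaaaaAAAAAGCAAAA
Neat1: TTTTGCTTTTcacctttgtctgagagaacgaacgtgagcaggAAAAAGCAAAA
Snhg11 held 1 AAAAAGCAAAA without the T-rich run, and Kcnq1ot1 held 1 TTTTGCTTTT without the A-rich run. Miat and Pantr1 held neither.

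Miat was close to absent from MEF and was lower in S87L than in wild-type cord. The gene (ENSMUSG00000097767, chr5:112213228-112229395, minus strand) has a longest annotated transcript of 9163 bases in 7 exons. Wild-type cord libraries held 12.3, 11.9 and 11.2 FPKM and S87L cord libraries 5.20, 5.42 and 5.46 FPKM. All 3 S87L cord libraries were below all wild-type ones, at means of 5.36 ± 0.139 against 11.8 ± 0.555 FPKM (SD, n = 3 each). The ratio was 0.453 and the log2 fold change -1.07 (SE 0.05). In MEF the values lay between 0.0156 and 0.0524 FPKM, which is 2 to 7 reads a library, and no genotype difference could be read at that depth.

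Miat is known for repeats of TACTAAC, the sequence that splicing factor 1 binds at intron branch points. The longest annotated transcript held 6 copies, in 2 clusters of 3 (searched on the transcript strand). They are shown because no other member had as many: Kcnq1ot1 held 4 in its 93092 bases, Neat1 held 1, and Malat1, Snhg11 and Pantr1 held 0. Of the 14 long noncoding genes with a longest transcript of 8000 to 10000 bases, Miat included, 4 held at least 1 copy and 1, Miat, held 6. The clusters lie at chr5:112217304-112217465 and chr5:112216747-112216817 (GRCm38, minus strand, transcript orientation), with the repeats in capitals.
Miat repeat cluster, 5' side: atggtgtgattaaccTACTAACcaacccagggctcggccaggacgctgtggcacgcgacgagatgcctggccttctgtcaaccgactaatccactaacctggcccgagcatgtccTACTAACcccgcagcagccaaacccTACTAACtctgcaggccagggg
Miat repeat cluster, 3' side: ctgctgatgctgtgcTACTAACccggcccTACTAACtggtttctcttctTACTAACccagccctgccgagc

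Snhg11, like Miat, was hardly present in MEF and was lower in every S87L than in every wild-type cord library. The gene (ENSMUSG00000044349, chr2:158375638-158386145, plus strand) is annotated as protein-coding, with a longest transcript of 5864 bases in 5 exons. The wild-type cord libraries held 59.7, 58.8 and 56.7 FPKM, and the S87L ones held 26.3, 26.8 and 27.5 FPKM. Here too the groups were far apart, at 58.4 ± 1.56 and 26.9 ± 0.635 FPKM (SD, n = 3 each), a ratio of 0.460. The log2 fold change was -1.11 (SE 0.04). MEF libraries held between 0 and 0.0511 FPKM, which corresponds to about 0 to 5 reads, too few to read a genotype difference.

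Kcnq1ot1 was the least abundant member in cord. The gene (ENSMUSG00000101609, chr7:143203458-143296549, minus strand) is annotated as an antisense RNA of 1 exon and 93092 bases that runs against Kcnq1. Wild-type cord libraries held 0.626, 0.701 and 0.703 FPKM, and S87L cord libraries held 0.236, 0.250 and 0.284 FPKM. The groups did not overlap, and over this length the values rest on 958 to 1056 reads in wild-type and 433 to 529 reads in S87L libraries. The means were 0.677 ± 0.0435 and 0.257 ± 0.0243 FPKM (SD, n = 3 each), a ratio of 0.379, the lowest of the 6 members. With a mean of 0.467 FPKM over the 6 libraries the gene fell below the filter of 0.5, and its log2 fold change of -1.38 (SE 0.07) comes from the recovered reads (limma-voom, added after the data were seen). MEF values were 0.449, 0.523 and 0.469 FPKM in wild-type and 0.525 and 0.427 FPKM in S87L libraries, which overlapped. No source used here gives the strand setting of the authors' counting, so reads of Kcnq1ot1 and Kcnq1 cannot be told apart where they overlap. Kcnq1 itself was at 0.113 FPKM in wild-type and 0.115 FPKM in S87L cord.

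Pantr1 went the other way from the rest in cord, and down in MEF. The gene (ENSMUSG00000060424, chr1:42590782-42694842, minus strand) has a longest annotated transcript of 2085 bases in 4 exons. It stood at 2.18, 1.93 and 2.19 FPKM in wild-type and 2.38, 2.68 and 2.67 FPKM in S87L cord. Each S87L cord library was a little above each wild-type one (2.58 ± 0.167 against 2.10 ± 0.150 FPKM, SD, n = 3 each), with a log2 fold change of 0.24 (SE 0.07). In MEF it stood at 0.608, 0.724 and 0.765 FPKM in wild-type and at 0.163 and 0.313 FPKM in S87L libraries. Both S87L MEF libraries were lower, but on 10 and 16 reads against 37 to 49 reads in wild-type. The ratio of the MEF means was 0.340, and the log2 fold change was -0.71 (SE 0.17) on the pseudocount scale and -1.62 (SE 0.30) on the recovered reads. It was -0.56 without S87L replicate 1 and -0.85 without S87L replicate 2.

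**Figure D1:**
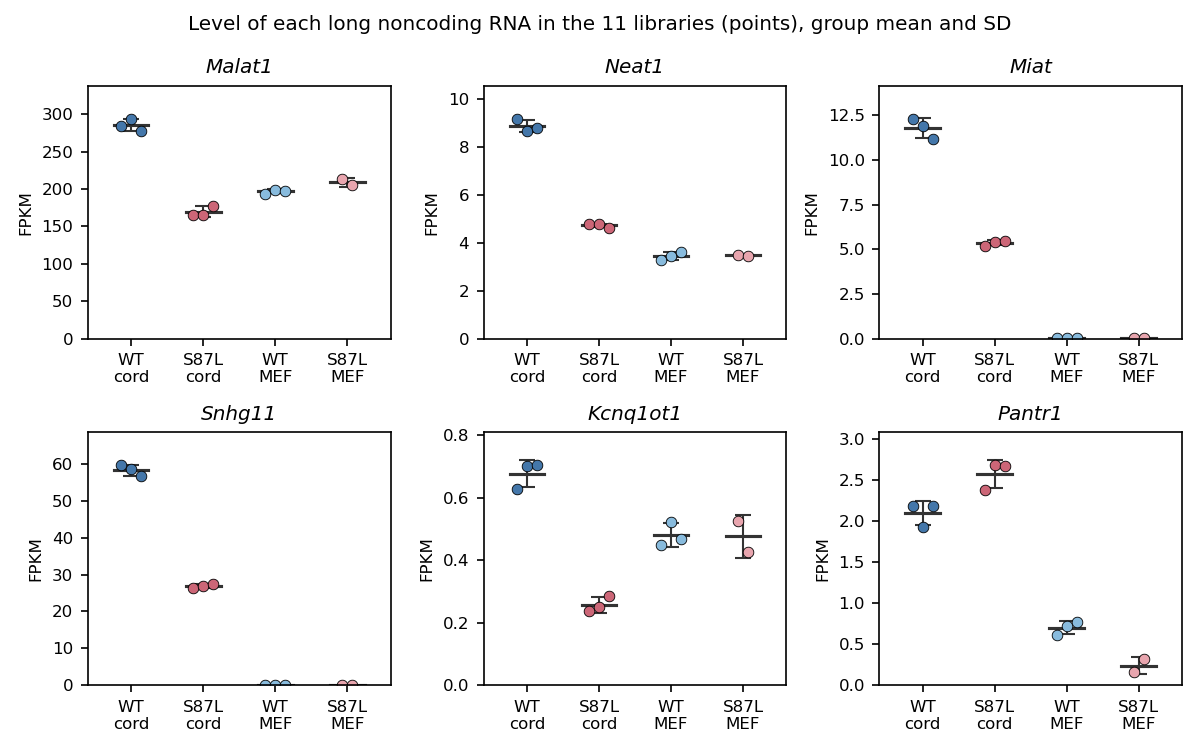
FPKM (vertical axes, from 0) of the 6 members in the 11 libraries, by genotype and tissue, with points for libraries and a bar and whiskers for the mean and SD of each group. In cord the S87L points of Malat1, Neat1, Miat, Snhg11 and Kcnq1ot1 all sit under the wild-type points (Malat1 at 165 to 178 against 278 to 294 FPKM), while those of Pantr1 sit above; in MEF, Miat and Snhg11 lie at the axis.

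Across all genes, 15648 passed the filter in cord and limma called 2016 of them at an adjusted p under 0.05, which is 12.9% of them (5.17% higher and 7.71% lower in S87L). Of the members, 5 passed the filter, and 4 (Malat1, Neat1, Miat and Snhg11) were among the genes called lower, as under every alternative, while Pantr1 was called higher with quantile normalization, median ratio scaling and limma-voom on recovered reads only. Groups that did not overlap were found for all 6 members, 5 lower and Pantr1 higher, and for 35.1% of the genes tested (21.3% lower and 13.8% higher). Since these differences chose the members, nothing is read from those counts. For scale, 264 of the 15648 genes had a lower log2 fold change than Malat1, 203 than Neat1, 126 than Miat and 122 than Snhg11. Among the 1018 long noncoding genes tested, 32 lay below Malat1, 21 below Neat1, and 7 below each of Miat and Snhg11.

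In MEF, 13773 genes passed the filter and limma called 1547, which is 11.2% (4.91% higher and 6.32% lower). Malat1, Neat1 and Pantr1 passed it, Pantr1 narrowly and through its wild-type level (mean 0.514 FPKM over the 5 libraries), and Pantr1 was among the genes called lower. That call was lost with a pseudocount of 0.1, with no filter, with quantile normalization, with the replicate block and without either S87L library, and Pantr1 fell below the filter without any 1 wild-type library. The MEF groups did not overlap for 2 of the 3 members tested (Malat1 higher, Pantr1 lower), against 45.8% of the genes tested (20.8% higher and 25.0% lower). The difference between the cord and the MEF values was not tested for any member.

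**Figure D2:**
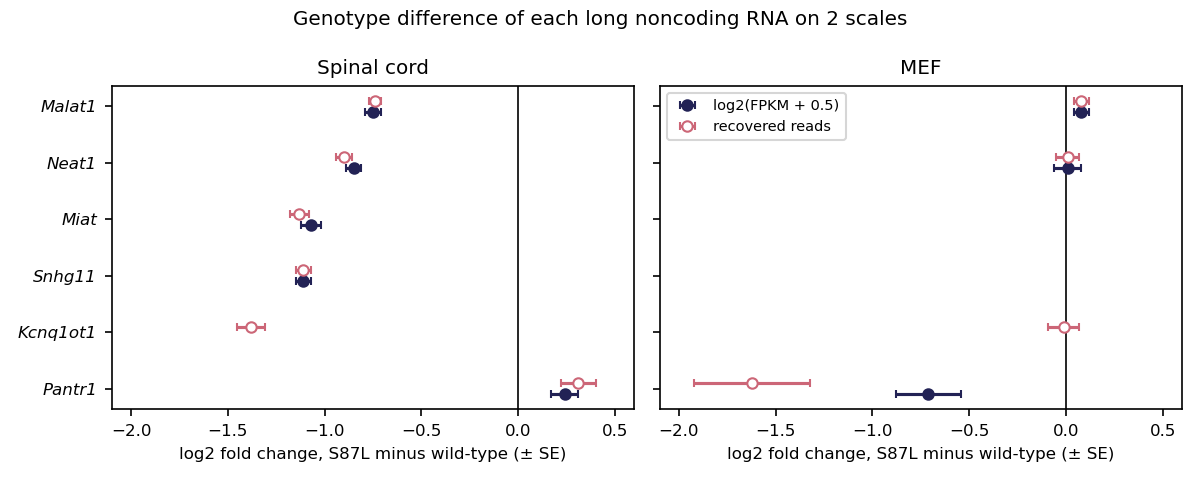
Log2 fold change of S87L minus wild-type with its SE (horizontal axes) for each member in cord and in MEF, from log2(FPKM + 0.5) (filled) and from recovered reads (open). In cord both scales put 4 members between -0.74 and -1.13 and Pantr1 above 0; Kcnq1ot1 has only the value from reads, -1.38 in cord and -0.01 in MEF.

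The comparison of wild-type cord with wild-type MEF asks where the members are expressed. All 6 were called higher in cord (limma, Benjamini-Hochberg adjusted p under 0.05), in a comparison that called 87.6% of 15962 genes, 47.4% of all genes tested being higher in cord. Snhg11, Miat and Kcnq1ot1 reached the filter only through their cord level (their MEF means are below 0.5 FPKM). The count of 6 is thus partly set by the filter, and the adjusted p of these 3 genes are no separate support for it. With no filter their limma adjusted p were 7.45e-10, 7.14e-09 and 0.0252. Snhg11 and Miat had adjusted p = 1.92e-11 and 3.39e-10 by limma, and no fold is given because MEF held about 3 reads of Snhg11 and 13 reads of Miat over 3 libraries. Pantr1 was 3.00-fold higher in cord by its mean FPKM (limma log2 fold change 1.12, SE 0.08, adjusted p = 4.94e-06). Neat1 was 2.57-fold higher (1.25, SE 0.05, limma adjusted p = 1.08e-07) and Malat1 1.45-fold higher (0.53, SE 0.03, limma adjusted p = 7.01e-07). Kcnq1ot1 differed least, at 0.677 against 0.481 FPKM (0.26, SE 0.09, limma adjusted p = 0.0240). That call was lost without wild-type cord replicate 2 (adjusted p = 0.0507) or 3 (0.0508) without wild-type MEF replicate 1 (0.0801) or 3 (0.0730), with median ratio scaling (0.0672) and with the replicate block (0.0559), and quantile normalization reversed its sign (-0.58, limma adjusted p = 7.14e-04). The median gene moved by 0.12 in this comparison, by -0.15 with quantile normalization and by 0.22 on recovered reads.

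In order of level per length, wild-type cord held Malat1 (286 FPKM), Snhg11 (58.4), Miat (11.8), Neat1 (8.87), Pantr1 (2.10) and Kcnq1ot1 (0.677), and no neighbours in that order overlapped over the 3 libraries. Malat1 ranked 3 among the 4759 long noncoding genes detected there, a class that does not hold Snhg11, Miat 27, Neat1 38, Pantr1 288 and Kcnq1ot1 860. In S87L cord the order kept Malat1 (170 FPKM) and Snhg11 (26.9) at the top, with Miat (5.36) and Neat1 (4.71) close together but not overlapping. In wild-type MEF the order was Malat1 (197 FPKM), Neat1 (3.45), Pantr1 (0.699) and Kcnq1ot1 (0.481), followed by Miat and Snhg11 near 0. Malat1 again ranked 3, among 3285 long noncoding genes detected, and Neat1 ranked 68.

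A list of other long noncoding RNAs of known function held more falls than rises in S87L cord (36.4% fell, beside 7.71% of all genes tested). It and the gene lists below were drawn up with earlier results of these data known, so their counts and p-values only describe these libraries. Genes of the same region, such as Meg3 and Mirg or Xist and Ftx, were counted separately. Of 53 such names, 44 matched a row, 33 passed the filter, 12 fell and 1 rose by limma (median log2 fold change -0.12, beside -0.02 over all genes), and 9 to 11 fell when 1 library was left out. Meg3, an imprinted noncoding RNA, stood at 93.9, 92.4 and 89.7 FPKM in wild-type and 38.1, 38.4 and 38.6 FPKM in S87L cord. It fell by 1.25 on the log2 scale (SE 0.03, limma adjusted p = 1.08e-05), with no overlap between groups. Mirg, a microRNA host of the same region, fell by 0.84. Mir124a-1hg, a host of the neuronal microRNA miR-124, fell from 8.47 to 4.11 FPKM (-0.96, limma adjusted p = 8.71e-05) and was listed at 0 in all MEF libraries. Lncpint, a p53-induced RNA, fell by 0.85 (between -1.59 and -0.59 over the alternatives), and the microRNA host Mir22hg fell by 0.57. Xist, which coats the inactive X chromosome, fell by 0.53, and Ftx, which lies near it and promotes it, fell by 0.58. The imprinted H19 was the gene of the list that rose, by 0.83, from 0.672 to 1.58 FPKM, which is 21 to 32 reads against 69 to 94 reads a library.

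In MEF, 22 of those long noncoding RNAs passed the filter, 2 fell and 0 rose (median 0.04). The falls were Bvht (-0.84, limma adjusted p = 0.0310) and Norad (-0.16, limma adjusted p = 0.0478). The call of Bvht was lost without wild-type replicate 1 or 3 or either S87L replicate (adjusted p up to 0.114). That of Norad was lost without any 1 of the 3 wild-type replicates or S87L replicate 1 (adjusted p of at most 0.188), and both were lost with the replicate block (limma adjusted p = 0.0716 for Bvht and 0.251 for Norad). Of the 17 matched Snhg genes, hosts of small nucleolar RNAs like Snhg11, 16 passed the filter in each tissue, and Snhg14 among them also belongs to the list above. Snhg14 fell in cord (-0.50, limma adjusted p = 0.0148), a call lost without wild-type replicate 3 or S87L replicate 1 or 2 (adjusted p of at most 0.0599), and the list's median was 0.01. Snhg6 rose in MEF (0.20, limma adjusted p = 0.0455), a call lost without any 1 of the wild-type replicates or S87L replicate 1 (adjusted p of at most 0.148) and with the replicate block (limma adjusted p = 0.221).

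Over all 1014 other long noncoding genes tested in cord, 91 fell (8.97%, beside 7.71% of all genes tested) and 19 rose, with a median of -0.05. With quantile normalization 56 fell and the median was 0.04, and 68 fell without wild-type replicate 1, 53 without replicate 2 and 57 without replicate 3. Without S87L replicate 1, 2 or 3 the count of falls was 49, 46 or 59. Of the 87 with an exonic length of at least 5000 bases, as Malat1, Neat1, Miat, Snhg11 and Kcnq1ot1 have, 23 fell (26.4%) and 1 rose (median -0.14). This class was formed after the values were seen, and its share of falls was not tested against other genes. Without S87L replicate 1 or 2 the count was 14, and without wild-type replicate 2 or 3 it was 15. Protein-coding genes of that length fell in 499 of 5813 cases (8.58%, median -0.03). Long noncoding genes with 1 exon, like Malat1, Neat1 and Kcnq1ot1, fell in 10 of 210 cases (4.76%), and those with more exons in 81 of 804 (10.1%). In MEF, 4 of 47 long noncoding genes of at least 5000 bases fell (8.51%, beside 6.32% of all genes tested) and 1 rose. The count of falls there was 1 or 2 with 1 library left out, and 1 with the replicate block.

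**Figure D3:**
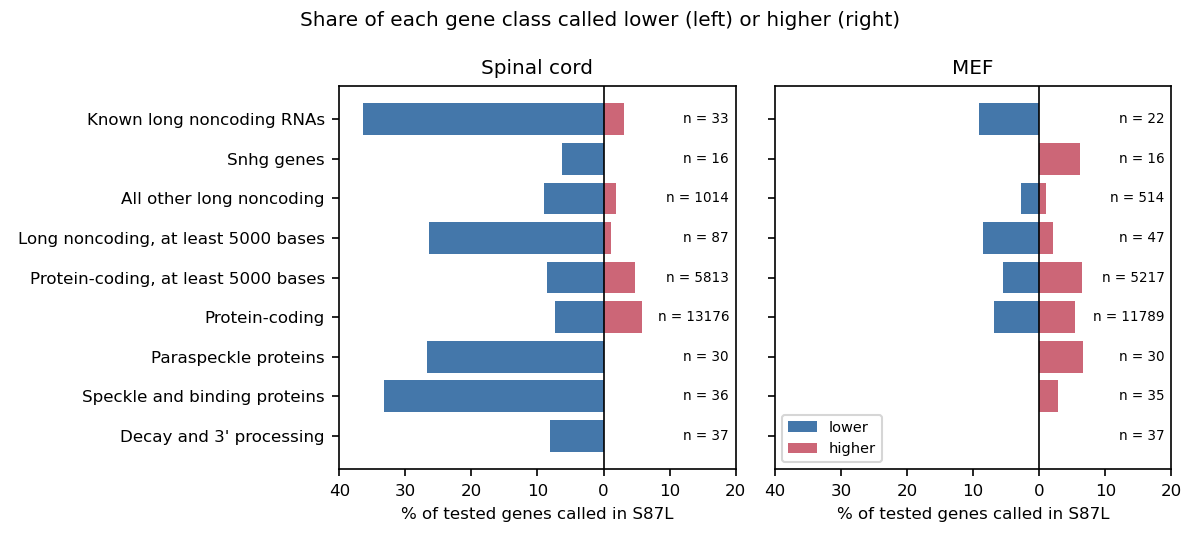
Percent of the tested genes of each class (n beside the bars) called lower (left of 0) or higher (right of 0) in S87L, in cord and in MEF, by limma. In cord the longest leftward bars are those of the known long noncoding RNAs (36.4%), the speckle and binding proteins (33.3%) and the paraspeckle proteins (26.7%); in MEF no class exceeds 10% in either direction.

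Transcripts of paraspeckle proteins, the partners of Neat1, fell or stayed uncalled in cord. Only RNA was measured, so each value given for a protein is that of its transcript. Of 30 tested, 8 fell (26.7%, beside 7.71% of all genes tested) and 0 rose (median -0.07). The count was 5 without wild-type replicate 2 or 3 or S87L replicate 1, and 4 without S87L replicate 2. The RNA-binding protein Ewsr1 stood at 25.6, 24.1 and 25.0 FPKM in wild-type and 20.2, 19.7 and 19.5 FPKM in S87L cord, with the groups apart. It fell by 0.33 on the log2 scale (SE 0.04, limma adjusted p = 0.00285). Rbmx fell by 0.39 and the core protein Pspc1 by 0.29. In MEF, 2 of 30 rose and 0 fell (median -0.01), namely Aff4 (0.31, limma adjusted p = 0.0255) and Srsf10 (0.19, limma adjusted p = 0.0461). Leaving out any 1 wild-type library ended both calls, leaving out either S87L library ended that of Srsf10 (adjusted p up to 0.0920 for Aff4 and 0.161 for Srsf10), and the replicate block ended both (0.122 and 0.205). The groups of Ewsr1 overlapped there, at 41.3 to 43.2 FPKM in wild-type and 40.8 and 42.7 FPKM in S87L MEF.

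Transcripts of nuclear speckle proteins and of proteins known to bind the members also included falls and no rises in cord. There 12 of 36 fell (33.3%, beside 7.71% of all genes tested) and 0 rose (median -0.11). With median ratio scaling 5 fell and 2 rose, the count of falls was 4 without S87L replicate 1 or 2, and it was 5 without wild-type replicate 2 or 3. The splicing factor Srsf5 stood at 39.7, 39.9 and 40.2 FPKM in wild-type and 23.0, 24.7 and 25.3 FPKM in S87L cord, again without overlap. It fell by 0.70 (SE 0.04, limma adjusted p = 2.00e-04). Pnisr, a serine- and arginine-rich speckle protein, fell by 0.51, and the speckle proteins Srrm2 and Srrm1 fell by 0.25 and 0.30. In MEF 1 of 35 rose, the spliceosome subunit Sf3b1 (0.18, limma adjusted p = 0.0337). Its call was lost without any 1 wild-type replicate or S87L replicate 1 (adjusted p of at most 0.135) and with the replicate block (limma adjusted p = 0.236).

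Transcripts of proteins of nuclear RNA decay and 3' end processing fell in cord at a share of 8.11%, near the 7.71% of all genes tested. Of 37 tested in cord, 3 fell and 0 rose (median -0.05): Rpp25, a subunit of RNase P and RNase MRP, fell by 0.39 (limma adjusted p = 0.0271), and the exosome subunit Exosc9 (0.0400) and the cleavage factor subunit Cpsf1 (0.0490) each fell by 0.19. The call of Rpp25 was lost without any 1 cord library other than wild-type replicate 2 (adjusted p up to 0.0844). Those of Exosc9 and Cpsf1 were lost without any 1 of the 6 (adjusted p up to 0.132 and 0.165). The poly(A)-binding protein Pabpn1, at 5.28 FPKM in wild-type and 3.68 FPKM in S87L cord, was not called (-0.46, limma adjusted p = 0.0540). In MEF limma called 0 of 37, with 8 at an unadjusted p under 0.05, and limma-voom on recovered reads called 4, all higher.

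**Figure D4:**
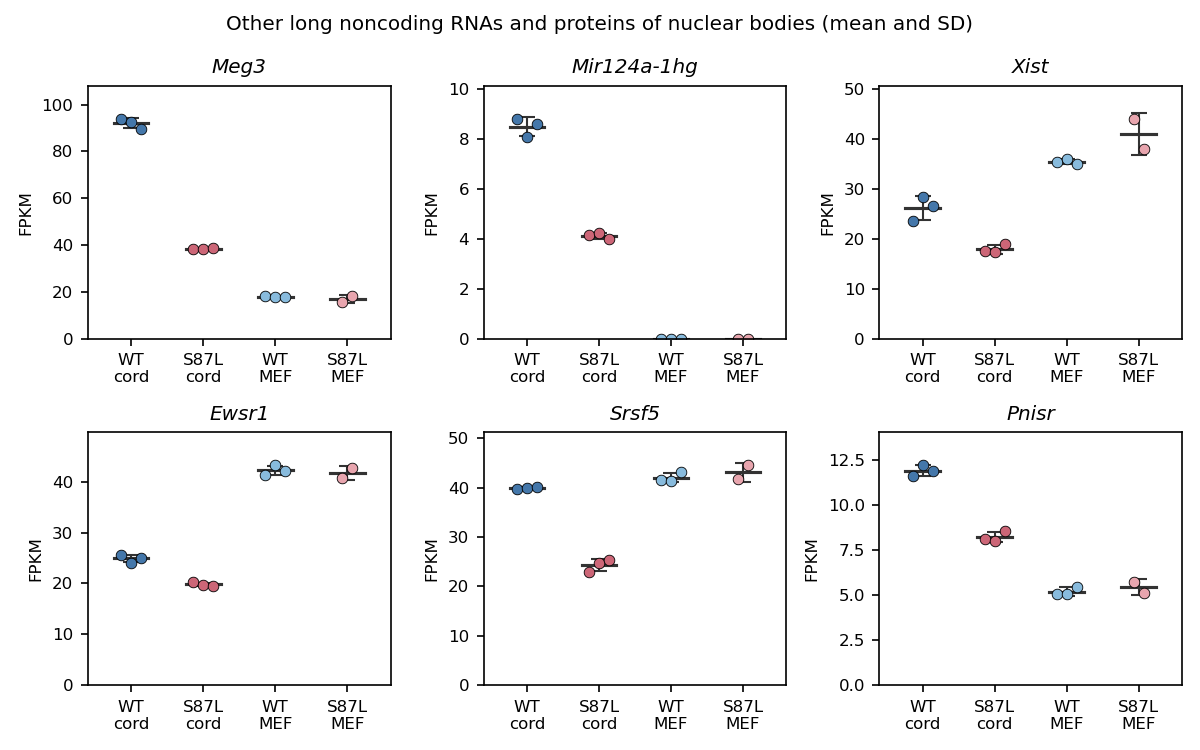
FPKM (vertical axes, from 0) of 3 other long noncoding RNAs and the transcripts of 3 nuclear body proteins in the 11 libraries, with points for libraries and the mean and SD of each group. In cord the S87L points lie below the wild-type points for each of the 6 genes, such as Meg3 at 38.1 to 38.6 against 89.7 to 93.9 FPKM. In MEF the groups of Meg3, Ewsr1, Srsf5 and Pnisr overlap, Mir124a-1hg lies at 0 and the S87L points of Xist lie above the wild-type points.

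Protein-coding genes next to the members were called in cord at a share near that of all genes. Of 31 neighbours, the 3 nearest on each side of each member and the host Kcnq1, 22 were tested in cord, where 2 rose and 1 fell by limma (13.6%, beside 12.9% of all genes). Near Malat1 and Neat1, 4 neighbours that were not called in cord had log2 fold changes of -0.09 for Ltbp3, 0.01 for Frmd8, -0.16 for Slc25a45 and 0.06 for Tigd3. Of the neighbours of Miat, Pitpnb, 824.9 kb downstream (0.15, limma adjusted p = 0.0273), and Crybb1, 26.4 kb upstream (0.33, limma adjusted p = 0.0494), rose. The call of Pitpnb was lost without any 1 cord library other than wild-type replicate 1 (adjusted p up to 0.116), and that of Crybb1 without any 1 of the 6 (adjusted p up to 0.151). The block ended both (0.0526 and 0.0663).

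Cdkn1c, a cell cycle inhibitor in the imprinted domain that Kcnq1ot1 silences, lies 161.8 kb upstream of the start of Kcnq1ot1. In cord it stood at 18.2, 16.7 and 16.3 FPKM in wild-type and 12.8, 15.1 and 12 FPKM in S87L libraries. It fell by 0.35 (limma adjusted p = 0.0354), a call lost without any 1 cord library other than S87L replicate 2 (adjusted p up to 0.114). In MEF it stood at 79.6, 78.8 and 84.6 FPKM in wild-type and 54.3 and 60.2 FPKM in S87L libraries. It fell there by 0.50 (limma adjusted p = 0.00477), a call lost with the replicate block (limma adjusted p = 0.0636), while Kcnq1ot1 overlapped between genotypes in the same libraries.

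Pou3f3, a neural transcription factor that starts 926 bases from the start of Pantr1 on the opposite strand, went with Pantr1 in MEF. It stood at 3.35, 3.67 and 3.55 FPKM in wild-type and 1.71 and 2.04 FPKM in S87L MEF, with no overlap. It fell by 0.77 (SE 0.09, limma adjusted p = 0.00445), and adjusted p was at most 0.0277 with 1 library left out. In cord it stood at 17.2, 16.8 and 16.5 FPKM in wild-type and 18.4, 19.8 and 17.2 FPKM in S87L libraries, which touched, and it was not called (0.13, limma adjusted p = 0.173). In MEF, 16 neighbours were tested, 1 rose and 3 fell (25.0%, beside 11.2% of all genes). The other calls there were Ltbp3 (-0.28, limma adjusted p = 0.0140) and Frmd8 (0.21, limma adjusted p = 0.0254) near Malat1 and Neat1. Both were lost without any 1 wild-type replicate, and that of Frmd8 also without S87L replicate 1 (adjusted p of at most 0.0668 for Ltbp3 and 0.104 for Frmd8). The replicate block ended both calls too (limma adjusted p = 0.115 and 0.182).

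**Figure D5:**
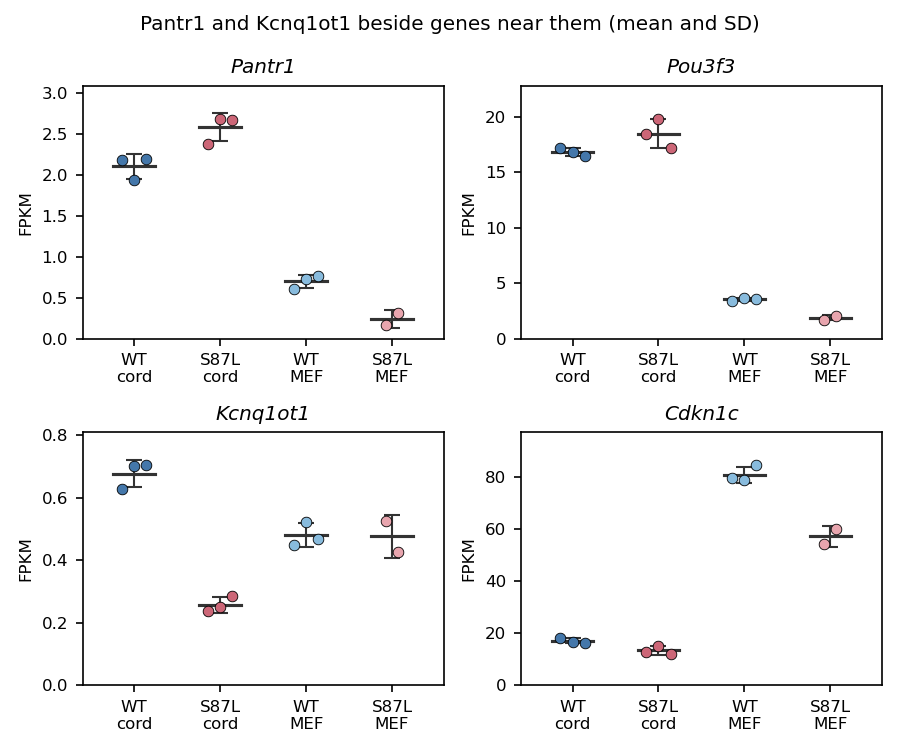
FPKM (vertical axes, from 0) of Pantr1 beside Pou3f3 and of Kcnq1ot1 beside Cdkn1c in the 11 libraries, with points for libraries and the mean and SD of each group. The S87L MEF points of Pantr1, Pou3f3 and Cdkn1c lie under the wild-type MEF points (Cdkn1c at 54.3 and 60.2 against 78.8 to 84.6 FPKM), and those of Kcnq1ot1 do not.

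Promoter windows, 250 bases before to 50 after the annotated start, were in the RefSeq table (GRCm38.p6) for 4 of the 6 members and not for Neat1 and Pantr1. They are printed for Malat1 and Kcnq1ot1, whose windows held 3 copies of a searched motif, and for Pou3f3, which moved with Pantr1 in MEF. The letters CCAAT (the CCAAT box), CGTCA (the core of a cyclic AMP response element) and GGGCGG (a GC box) were searched on both strands and are in capitals. Malat1 (chr19:5802623-5802922, minus strand) held 3 CGTCA, as do 1.03% of the 32851 windows of the table, while 20.8% hold at least 1. Kcnq1ot1 (chr7:143296498-143296797, minus strand) held 3 CCAAT, as 3.37% do (37.4% hold at least 1), and 1 CGTCA. Pou3f3 (chr1:42695518-42695817, plus strand) held 3 CCAAT and 1 GGGCGG.
Malat1 promoter: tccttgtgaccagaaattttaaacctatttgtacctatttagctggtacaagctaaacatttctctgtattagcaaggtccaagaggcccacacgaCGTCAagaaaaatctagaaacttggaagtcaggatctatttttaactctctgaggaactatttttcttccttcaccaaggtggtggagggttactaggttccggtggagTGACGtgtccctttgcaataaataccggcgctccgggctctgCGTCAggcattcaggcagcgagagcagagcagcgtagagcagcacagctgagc
Kcnq1ot1 promoter: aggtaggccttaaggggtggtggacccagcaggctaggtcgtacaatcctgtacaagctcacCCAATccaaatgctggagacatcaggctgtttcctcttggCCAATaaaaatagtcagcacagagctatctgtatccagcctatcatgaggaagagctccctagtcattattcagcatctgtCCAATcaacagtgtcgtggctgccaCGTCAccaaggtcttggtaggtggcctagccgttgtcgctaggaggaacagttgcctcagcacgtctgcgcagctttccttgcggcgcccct
Pou3f3 promoter: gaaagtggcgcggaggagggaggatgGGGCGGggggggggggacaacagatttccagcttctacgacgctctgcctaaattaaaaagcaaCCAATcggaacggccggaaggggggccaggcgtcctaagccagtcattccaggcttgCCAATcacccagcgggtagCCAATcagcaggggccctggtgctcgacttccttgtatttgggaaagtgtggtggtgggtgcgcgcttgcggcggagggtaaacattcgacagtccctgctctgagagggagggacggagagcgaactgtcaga
Miat held 1 GGGCGG (35.7% of windows hold at least 1), and the window of Snhg11 held none of the 3. A match is a stretch of letters and says nothing of binding in these cells.

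The genes whose profile over the 11 libraries was most like each member were found among 12700 genes by the root mean square difference of centred log2(FPKM + 0.5) values, a measure that shares the libraries and their scaling. For Malat1 they were the VEGF receptor gene Kdr (0.11), the protocadherin Pcdhga6 (0.12) and Lrrc45 (0.13), where the median over all genes was 0.60. For Kcnq1ot1 they were Cspp1 (0.10), Malat1 (0.11) and Lrrc45 (0.11), on a scale where the pseudocount compresses its low levels: by ratio of means S87L cord was at 0.379 of wild-type for Kcnq1ot1 and 0.594 for Malat1. For Neat1 they were the homeobox gene Hoxc9 (0.11), the pseudogene Tmem181b-ps (0.12) and the speckle protein Pnisr (0.14). Miat was most like the oligodendrocyte gene Opalin (0.15), Mir124a-1hg (0.17) and Trank1 (0.19). Snhg11 had no gene as close in absolute terms, with Myoc (0.29), Nrsn2 (0.34) and Cntn2 (0.34) nearest, but its median over all genes was 3.12. That median was 2.01 for Miat and 0.93 for Pantr1. Between wild-type and S87L cord, Myoc went from 40.3 to 25.7 FPKM, Nrsn2 from 47.9 to 40.3 and Cntn2 from 47.8 to 40.6, beside 58.4 to 26.9 for Snhg11. Pantr1 was nearest to Gstt1 (0.13), Pltp (0.14) and Plscr4 (0.14).

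Several measures moved with genotype in the same cord libraries, and their part in the members' differences was not tested. For scale, 7.71% of all genes tested in cord fell and 5.17% rose. Neuron markers, which bear on Miat and Snhg11, summed to 2543 to 2557 FPKM in wild-type and 2471 to 2542 FPKM in S87L cord, and 3 of 18 fell (median -0.03). With median ratio scaling 0 fell, as without wild-type replicate 2 or 3 or any 1 S87L library. In MEF the same list summed to 36.1 to 45.0 FPKM, with 9 of 18 markers under 0.1 FPKM. Oligodendrocyte markers summed to 3983 to 4062 FPKM in wild-type and 3778 to 3935 FPKM in S87L cord, with 1 of 11 higher (0 without S87L replicate 1) and 1 lower. Astrocyte markers summed to 1133 to 1197 and 1142 to 1164 FPKM, with 2 of 8 higher (1 without any 1 S87L library) and 1 lower (0 without any 1 library other than wild-type replicate 1). Skeletal muscle markers rose in 11 of 11 cases, from 17.2 to 22.2 FPKM in wild-type to 81.2 to 87.7 FPKM in S87L libraries. Meninges and fibroblast markers rose in 7 of 9 cases (29.3 to 31.0 against 53.8 to 55.2 FPKM) and microglia markers in 5 of 9 (275 to 295 against 331 to 342 FPKM). The microglia count was 3 when S87L replicate 1, S87L replicate 2, wild-type replicate 2 or wild-type replicate 3 was left out. Red blood cell markers rose in 3 of 6 cases (337 to 372 against 409 to 448 FPKM), or in 1 without any 1 S87L library or with no filter. Endothelial markers summed to 62.9 to 67.4 and 65.2 to 67.1 FPKM, with 1 of 7 higher (0 without S87L replicate 2) and 1 lower. Small RNA features inside introns, which can also collect reads of unspliced RNA, lay below their host genes in 142 of 175 cases in cord (median difference -0.47) and in 111 of 219 in MEF (-0.02).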

How the data were processed

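RNA-seq of 11 mouse libraries was analysed from 1 table of FPKM values per Ensembl gene, deposited by the authors. The submitters' processing notes list the build GRCm38 and, without roles, HTSeq 0.11.3, Picard 2.25.5, Trimmomatic 0.39 and HISAT2 2.2.1. No source used here gives the strand setting or the annotation release. Per the labels' protocols, libraries were made from total RNA with a directional kit; whether poly(A) RNA was selected or ribosomal RNA removed is not given there, which bears on RNAs without a poly(A) tail. Of 55487 rows, 55227 matched GENCODE vM21, which gave symbols, types and lengths.

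Tests used limma 3.58.1 (R 4.3.3; trend, robust) on log2(FPKM + 0.5) for genes with a mean of at least 0.5 FPKM over the libraries of a comparison, with Benjamini-Hochberg adjustment over all genes tested and a threshold of 0.05. The 3 comparisons were S87L minus wild-type in cord, the same in MEF, and wild-type cord minus wild-type MEF. Whole reads were recovered from the FPKM steps (98.5% to 98.6% of values within 0.05 of a whole read), and limma-voom on them (mean of at least 10 reads) was added after the data were seen. The fits were also run on simulated reads with known changes. Their spread was set by hand and not estimated from these libraries, so nothing is read from that run. Alternatives were pseudocounts of 0.1 and 1, no filter, quantile and median ratio scaling, each library left out, and a replicate block. Same-numbered libraries did not deviate together in every pair, so the block is not part of the tests.

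The members and gene lists were chosen with earlier results of these data known. The genes named are all members, the called long noncoding RNAs of the list with the largest changes (up to 8 a contrast), the proteins of each list with the smallest p (up to 4), the 3 nearest protein-coding genes on each side of each member, and the 3 genes of most similar profile (mean of at least 1 FPKM). Some genes that this rule selects are not reported here.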

Additional observations from a re-analysis of the deposited data

Results flagged for a closer look

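Some genes had S87L libraries on opposite sides of the wild-type ones in the 2 tissues, every library counted. The difference between tissues was not tested for any of them. Over all genes tested, groups did not overlap for 35.1% in cord and 45.8% in MEF, and the share on opposite sides was not counted. Among the members, Malat1 was lower in S87L cord and higher in S87L MEF (log2 fold changes of -0.75 and 0.08), and Pantr1 was higher in cord and lower in MEF (0.24 and -0.71). Among the other long noncoding RNAs, cord and MEF gave -0.84 and 0.13 for Mirg, -0.57 and 0.15 for Mir22hg, -0.53 and 0.20 for Xist, and 0.83 and -0.13 for H19. Among the transcripts of the listed proteins they gave -0.10 and 0.21 for the splicing kinase Clk1 and -0.15 and 0.14 for the splicing regulator Tra2a. For Exosc9 they gave -0.19 and 0.09, and for Zfc3h1, a partner of the nuclear exosome, -0.20 and 0.18.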

How the results depend on the processing

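The members' values were recomputed under 176 combinations of member, comparison and alternative. Genotype values, given with no test, were compared by size alone and tissue values by their call: 154 stayed within the spread between replicates or kept their call, 15 moved by more than that, and Kcnq1ot1 between tissues lost its call 6 times and reversed once (-0.58 with quantile normalization). In cord, log2 fold changes ranged over all alternatives from -0.79 to -0.71 for Malat1, -0.90 to -0.79 for Neat1, -1.13 to -1.01 for Miat, -1.13 to -1.06 for Snhg11 and 0.19 to 0.32 for Pantr1. Pantr1 in MEF ranged from -1.62 to -0.46 and was still called with a pseudocount of 1, median ratio scaling and limma-voom on recovered reads only. The count of genes called in cord was 2016, between 838 and 1637 with 1 library left out and 3211 with limma-voom on recovered reads. Of the 2016 genes 40.1% were higher in S87L, against 58.4% of 2108 with median ratio scaling. In MEF the count was 1547, 788 with no filter, 2938 with limma-voom on recovered reads, and between 565 and 1753 with 1 library left out. With the replicate block it was 182 in MEF and 1663 in cord. The block rests on shared numbers only: same-numbered libraries correlated in their deviations at 0.15, -0.05 and 0.11 in cord and at -0.07 and -0.03 in MEF. The 13988 calls between tissues kept within 1.5 times under every alternative run. Of 37 genotype calls among the listed genes and neighbours followed, 19 held under every alternative run, 17 were lost without at least 1 library and 16 under another alternative; 0 changed sign. In MEF the depth left too few reads of Miat and Snhg11 to show a genotype difference.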
